A study of Arabidopsis thaliana with 6 samples.

Results

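The xyloglucan endotransglucosylase/hydrolase (XTH) family of Arabidopsis thaliana comprises the 33 genes XTH1 to XTH33, and all 33 were rows of the deposited count table of 32833 genes. Members were taken by gene identifier as a whole family, and the family was chosen with earlier results of these data known. Messenger RNA had been sequenced from whole, untreated seedlings 7 days old, grown on MS medium with sucrose, in 3 libraries of a gbpl3 mutant and 3 libraries of the Col-0 wild type. The mutated gene, GBPL3, encodes a member of the guanylate-binding protein family, and in the title of the series it is a protein of the nuclear basket. The labels do not name the mutant allele. They do not say either whether the 3 libraries are separate growths of plants, so the spread behind each p-value may be technical. The mutant libraries are numbered 1 to 3 in the genotype field as well, and these numbers were taken as replicates, the series being described as done in triplicate.

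Xyloglucan is the main hemicellulose of the primary wall of most flowering plants, a glucan chain with xylose-containing side chains that lies on and between cellulose microfibrils. XTH enzymes cut a xyloglucan chain and either join the new end to another chain (endotransglucosylase activity) or release it to water (hydrolase activity). They act in the apoplast, where the wall is loosened and rebuilt as cells elongate, and individual members are known for expression in particular organs, in root hairs, in vessels or after touch. Most members belong to clade I/II, and the smaller clade III is split into III-A, which holds the hydrolases XTH31 and XTH32, and III-B.

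Total counts ran from 10836165 to 12911891 in the gbpl3 libraries and from 9530643 to 12104120 in the wild-type libraries. GBPL3 (AT5G46070) itself stood at 14.8, 18.8 and 15.6 normalised CPM (counts scaled by library size with TMM) in gbpl3, against 68.9, 67.9 and 66.0 CPM in wild type, a log2 fold change of -2.04 (SE 0.12, adjusted p = 5.11e-09). Reads of GBPL3 were thus still found in every mutant library. Wild-type replicate 2 stood apart on the second principal component of all genes, at 42.6, against -28.4 and -10.1 for wild-type replicates 1 and 3 and -8.02 to 4.30 for the gbpl3 libraries. Below, fold changes are gbpl3 over wild type from edgeR's quasi-likelihood test, p-values are Benjamini-Hochberg adjusted over 20677 genes, a gene is called at an adjusted p under 0.05, and means are given ± SD with n = 3 per genotype.

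Of the 33 members, 27 passed the filter on low counts, and 13 of those 27 were called, 48.1%, where 10.7% of all genes tested were called. In gbpl3, 9 members rose (6.06% of all genes tested) and 4 fell (4.69% of all genes tested), and 14 were not called. The members that rose were XTH6, XTH7, XTH12, XTH13, XTH14, XTH19, XTH20, XTH23 and XTH24, and those that fell were XTH5, XTH8, XTH15 and XTH21. Every gbpl3 library lay above every wild-type library for 12 of the 27 (14.5% of all genes tested) and below for 3 (13.6%, together 28.1%). All 13 called members belong to clade I/II, in which 21 of 26 members were tested. Neither of the 2 members of clade III-A nor any of the 4 tested members of clade III-B was called. The median log2 fold change of the 27 tested members was 0.19, and that of all genes tested was -0.0034. XTH12 and XTH13 reached the filter's cutoff of 0.894 CPM in all libraries of gbpl3 but not of wild type, and XTH21 in all libraries of wild type but not of gbpl3, so these 3 entered the test through the genotype in which they were high.

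**Figure D1:**
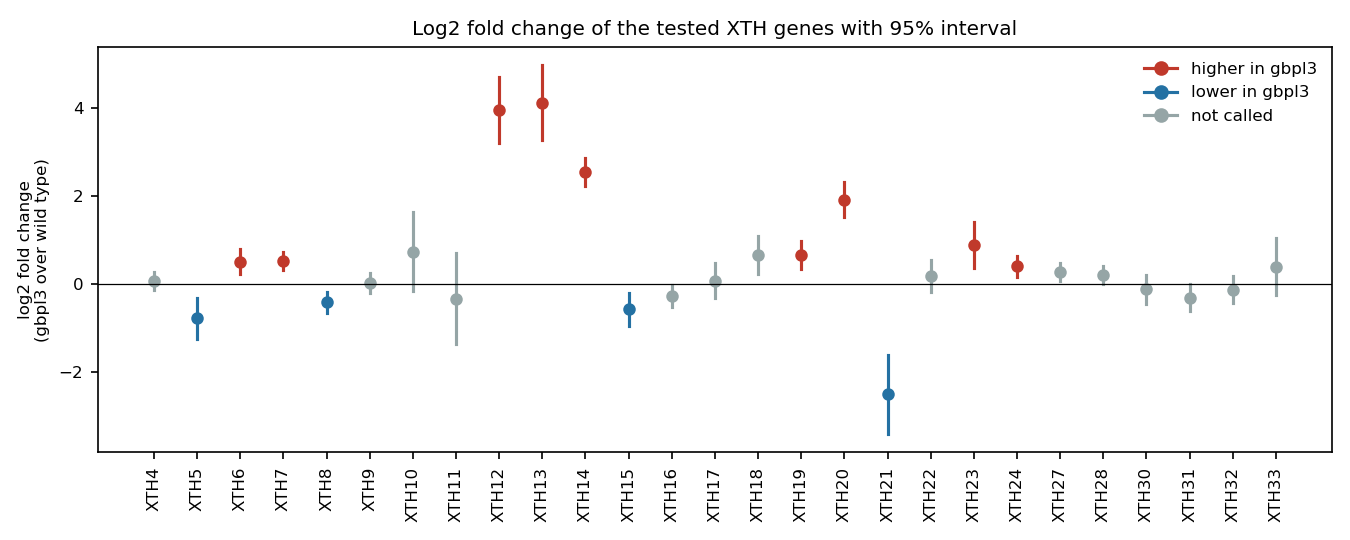
Log2 fold change of the 27 tested XTH genes (vertical axis, gbpl3 over wild type) in order of member number, with bars for the 95% interval, which is not adjusted for the number of genes. XTH12 and XTH13 stand highest at 3.95 and 4.11, and XTH21 lowest at -2.52.

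The number of calls depended on the setting, and each count is set here beside the share of all genes that the same fit called. RLE scaling called 9 members higher and 4 lower (6.07% and 4.68% of genes, 10.8% together), upper-quartile scaling the same numbers (6.16% and 4.54%), and a minimum of 1 CPM in 3 libraries the same numbers (6.1% and 4.73%). DESeq2 called 10 members higher and 3 lower (5.18% and 3.87% of genes, 9.05% together), and edgeR with no filter 12 and 4 (5.96% and 4.87%, 10.8% together). Without gbpl3 replicate 1, 6 members were called higher and 1 lower (3.15% and 1.95% of genes, 5.1% together). Without gbpl3 replicate 2 these counts were 8 and 4 (5.35% and 4.18%, 9.52% together), and without gbpl3 replicate 3 they were 7 and 2 (2.99% and 1.52%, 4.52% together). Without wild-type replicate 1, 9 members were called higher and 2 lower (4.68% and 2.9% of genes, 7.58% together). Without wild-type replicate 2 the counts were 8 and 4 (6.86% and 5.89%, 12.7% together), and without wild-type replicate 3 they were 6 and 1 (3.86% and 2.67%, 6.54% together). With the replicate number as a term, 8 members were called higher and 2 lower (4.43% and 2.99% of genes, 7.42% together). limma on the deposited FPKM called fewer members in each of its 3 fits. It called 4 higher and 2 lower on log2(FPKM + 1) with a minimum mean of 1 FPKM (1.54% and 1.32% of genes, 2.86% together), which ended the XTH7 and XTH19 calls among others. It called 4 higher and none lower on log2(FPKM + 0.1) (0.903% and 0.775% of genes, 1.68% together) and on log2(FPKM + 1) with no filter (0.864% and 0.609% of genes, 1.47% together), where the XTH21 call ended as well. XTH12, XTH13, XTH14 and XTH20 were called higher in all of these fits.

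Counted at 2-fold or more, 4 members were higher in gbpl3 (2.06% of all genes tested passed this) and 1 was lower (0.711% of all genes tested). The 4 were XTH12, XTH13, XTH14 and XTH20, and all 4 are among the members listed as known mainly from roots. That list was drawn up with earlier results of these data known, so a link to roots was not tested. The lower member was XTH21. Like XTH12 and XTH13, it entered the test through the genotype in which it was high, so both 2-fold counts are description only. XTH12 and XTH13 encode closely related endotransglucosylases and lie next to each other on chromosome 5, from 23300321 to 23301689 and from 23302787 to 23304095 (TAIR10.1, minus strand). XTH14, their next relative, lies on chromosome 4 from 13130291 to 13131860 (plus strand), and is known from roots.

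XTH12 (AT5G57530) had 13.9, 9.82 and 10.3 CPM in gbpl3, against 0.872, 0.246 and 1.12 CPM in wild type. XTH13 (AT5G57540) had 6.34, 5.57 and 7.35 CPM in gbpl3, against 0.349, 0.329 and 0.409 CPM in wild type. XTH14 (AT4G25820) had 37.7, 32.6 and 32.6 CPM in gbpl3, against 6.37, 5.59 and 5.83 CPM in wild type. In each of these 3 genes every gbpl3 library lay far above every wild-type library. The rises were 15.4-fold for XTH12 (log2 fold change 3.95, SE 0.36, adjusted p = 9.37e-07), 17.3-fold for XTH13 (4.11, SE 0.40, adjusted p = 2.33e-06) and 5.78-fold for XTH14 (2.53, SE 0.15, adjusted p = 5.11e-09). The wild-type level of the first pair rests on few reads, 24 counts for XTH12 and 12 for XTH13 over the 3 libraries. With any single library left out, the log2 fold change stayed between 3.50 and 4.33 for XTH12, 4.01 and 4.21 for XTH13, and 2.46 and 2.59 for XTH14.

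Because the members are paralogs, the coding sequences were compared to see whether reads could be assigned to single genes. XTH12 and XTH13 were identical at 89.7% of 855 aligned coding bases, with a longest identical run of 47 bases. XTH14 shared 77.7% of its aligned coding bases with XTH12 and 78.7% with XTH13. No stretch of 50 bases of the XTH12, XTH13 or XTH14 transcript occurred elsewhere in the genome. The 90 coding bases around the codons of the catalytic site are shown for XTH12, XTH13, XTH14, XTH20 and XTH21, the tested members that differed by 2-fold or more between the genotypes (RefSeq TAIR10.1 annotation, sense strand, capitals mark bases that differ from XTH12):
XTH12: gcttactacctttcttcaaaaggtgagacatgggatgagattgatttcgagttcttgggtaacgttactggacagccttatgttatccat
XTH13: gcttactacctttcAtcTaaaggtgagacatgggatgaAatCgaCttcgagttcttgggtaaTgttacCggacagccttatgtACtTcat
XTH14: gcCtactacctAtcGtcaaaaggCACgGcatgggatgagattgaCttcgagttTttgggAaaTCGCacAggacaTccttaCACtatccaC
XTH20: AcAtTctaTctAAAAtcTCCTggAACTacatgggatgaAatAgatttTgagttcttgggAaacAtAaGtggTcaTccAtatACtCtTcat
XTH21: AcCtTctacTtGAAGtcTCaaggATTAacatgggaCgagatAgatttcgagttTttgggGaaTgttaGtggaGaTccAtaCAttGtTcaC
In this stretch XTH13 differed from XTH12 at 10 of 90 bases, XTH14 at 20, XTH21 at 28 and XTH20 at 30.

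Among the members of the XTH17 to XTH20 group, which are known from the root, paralogs differed in their values. XTH20 (AT5G48070), known from the vascular tissue of mature root, had 22.3, 18.3 and 21.2 CPM in gbpl3, against 6.98, 4.35 and 5.11 CPM in wild type. It rose 3.75-fold (log2 fold change 1.91, SE 0.19, adjusted p = 3.34e-06), with no overlap between the genotypes. XTH19, known from dividing and elongating root cells, had 23.3, 22.8 and 21.9 CPM in gbpl3, against 15.9, 11.9 and 15.6 CPM in wild type, and rose 1.57-fold (0.65, SE 0.15, adjusted p = 0.00836). XTH18, known from the root elongation zone, was not called although its estimate was close to that of XTH19. Its levels were 20.4, 17.4 and 12.2 CPM in gbpl3, against 12.8, 7.97 and 11.2 CPM in wild type, and the groups overlapped in gbpl3 replicate 3 (0.64, SE 0.21, adjusted p = 0.0536). Without gbpl3 replicate 3 XTH18 was called (log2 fold change 0.83, adjusted p = 0.0317), as it was without wild-type replicate 1 (0.80, adjusted p = 0.0232). With every library kept, edgeR with no filter on low counts also called XTH18, where 10.8% of genes were called. XTH17, also known from elongating root cells, had 18.8, 24.8 and 16.5 CPM in gbpl3, against 25.6, 16.5 and 15.5 CPM in wild type, with overlap, and its log2 fold change of 0.06 had a 95% interval of -0.33 to 0.46. Whether these paralogs differ in response was not tested. XTH17 and XTH18 share 92.2% of their coding bases, and XTH18 and XTH19 share 89.2%, but at most 1.63% of the 50-base stretches of XTH17, XTH18, XTH19 and XTH20 occurred elsewhere in the genome.

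XTH21 (AT2G18800), known for a part in primary root growth, went the other way. It had 1.14, 1.24 and 0.651 CPM in gbpl3, against 5.67, 3.12 and 8.99 CPM in wild type. The gbpl3 libraries were all low, while the wild-type libraries spread widely, and the groups did not overlap. In gbpl3 the level was 5.74-fold lower, with a log2 fold change of -2.52 (SE 0.43, adjusted p = 0.000932), and stayed called with any single library left out, at -2.83 to -2.10. Of its 50-base transcript stretches 7.15% also occurred at AT2G12660 on chromosome 2, more than for any other member, so part of its reads can match both places.

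Promoter windows were searched for 3 motifs. In the 250 bases before the annotated start, the auxin element (TGTCTC or TGTCGG, both strands) stood in 3 of 33 members and in 14.7% of 27443 protein-coding genes. The brassinosteroid element BRRE (CGTGCG or CGTGTG, both strands) stood in 4 of 33 members and in 6.7% of those genes. The G-box CACGTG stood in none of the 33 members and in 6.5% of those genes. Of the 9 members that rose, 2 held the auxin element (XTH6 and XTH20) and 1 the BRRE (XTH23), and of the 4 that fell, none held the auxin element and 1 the BRRE (XTH8). XTH20 was higher and XTH21 lower in gbpl3, each by more than 2-fold, and their upstream sequences are shown for comparison, 5′ to 3′, with motif bases in capitals. The XTH20 window is chr5:19481647-19481896 and the XTH21 window chr2:8144631-8144880, both on the plus strand of TAIR10.1:
XTH20: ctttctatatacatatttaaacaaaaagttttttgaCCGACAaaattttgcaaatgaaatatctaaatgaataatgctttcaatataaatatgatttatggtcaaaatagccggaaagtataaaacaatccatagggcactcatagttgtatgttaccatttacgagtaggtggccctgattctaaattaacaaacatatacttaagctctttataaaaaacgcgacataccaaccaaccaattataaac
XTH21: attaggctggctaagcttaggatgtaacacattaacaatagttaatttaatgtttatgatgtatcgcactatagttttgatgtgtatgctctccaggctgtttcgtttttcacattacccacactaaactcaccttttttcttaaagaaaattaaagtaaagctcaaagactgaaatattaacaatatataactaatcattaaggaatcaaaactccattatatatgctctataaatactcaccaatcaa
The single capital run of XTH20 is the auxin element read on the other strand, and XTH21 held none of the motifs in this window.

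**Figure D2:**
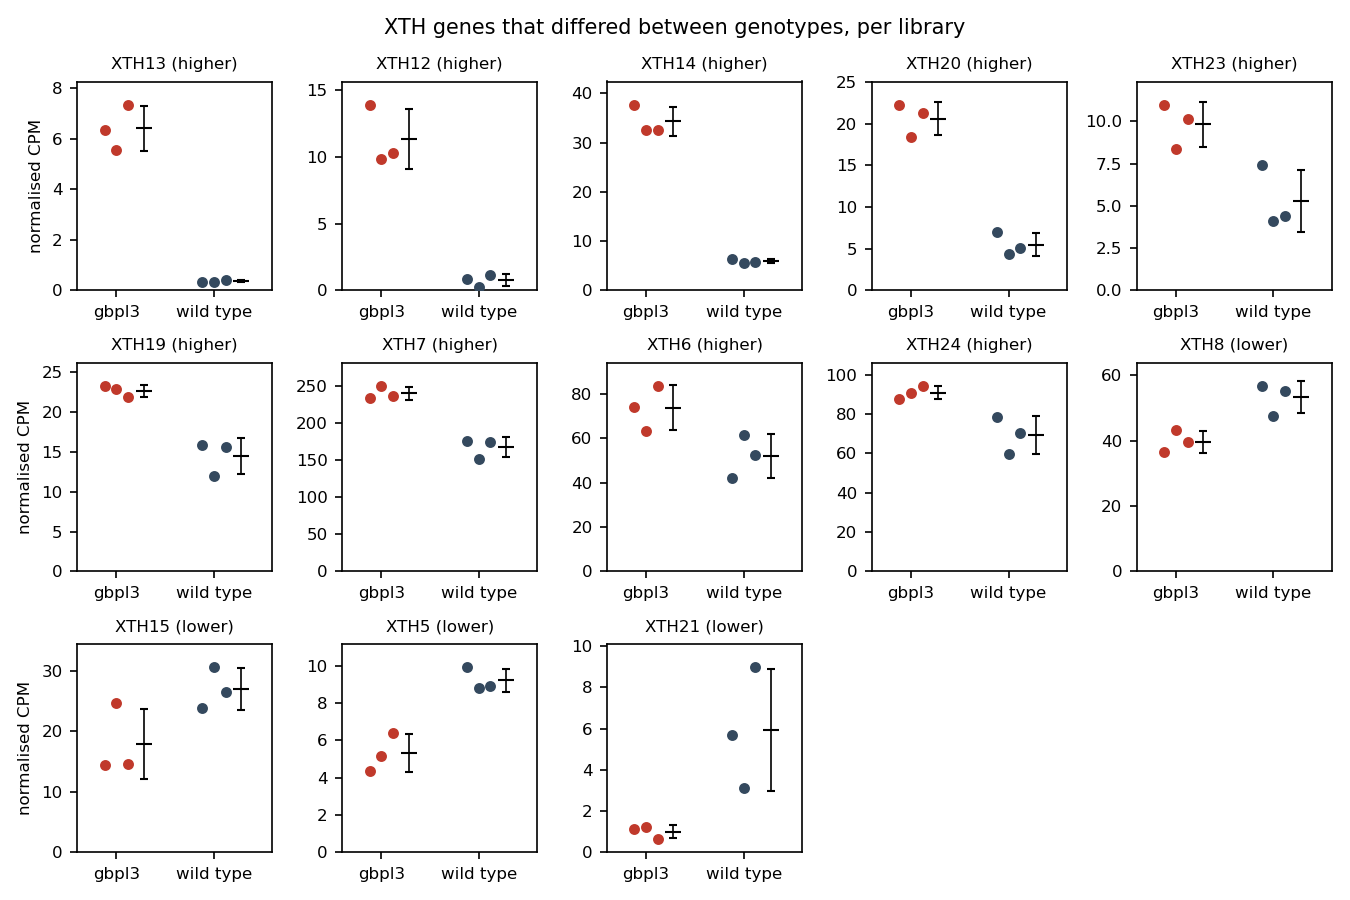
Normalised CPM (vertical axes, each from 0) of the 13 called XTH genes in the 3 gbpl3 and the 3 wild-type libraries, one panel per gene, ordered from the highest to the lowest log2 fold change. Points are libraries, and the bar beside them is the mean ± SD. XTH15 is the called member whose genotypes overlap.

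The other members that rose, XTH6, XTH7, XTH23 and XTH24, did so by less than 2-fold. XTH7 (AT4G37800) had 233, 250 and 236 CPM in gbpl3, against 176, 151 and 174 CPM in wild type, a 1.43-fold rise (log2 fold change 0.52, SE 0.10, adjusted p = 0.00236) with no overlap. XTH7 was called with any single library left out, at 0.45 to 0.56. XTH24, the meristem gene MERI5, had 87.6, 90.8 and 94.4 CPM in gbpl3, against 78.4, 59.5 and 70.3 CPM in wild type, a 1.31-fold rise (0.39, SE 0.11, adjusted p = 0.0284). XTH6 had 74.0, 63.4 and 83.6 CPM in gbpl3, against 42.0, 61.5 and 52.3 CPM in wild type, a 1.42-fold rise (0.50, SE 0.13, adjusted p = 0.0213) in which wild-type replicate 2 came close to gbpl3 replicate 2. XTH23, also named XTR6, had 11.0, 8.35 and 10.1 CPM in gbpl3, against 7.41, 4.11 and 4.40 CPM in wild type, a 1.84-fold rise (0.88, SE 0.25, adjusted p = 0.027).

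The calls of these last 3 members depended on single libraries. The XTH24 call ended without gbpl3 replicate 1, 2 or 3 (adjusted p = 0.0732, 0.0649 and 0.123) and without wild-type replicate 2 or 3 (0.0893 and 0.089). The XTH6 call ended without gbpl3 replicate 1 or 3 (adjusted p = 0.0771 and 0.147) and without wild-type replicate 1 or 3 (0.072 and 0.0752). The XTH23 call ended without gbpl3 replicate 1 or 3 (adjusted p = 0.12 and 0.104) and without wild-type replicate 2 or 3 (0.0711 and 0.112). The sign of all 3 was the same in each of these fits.

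Besides XTH21, the members called lower were XTH5, XTH8 and XTH15. XTH5 had 4.36, 5.18 and 6.42 CPM in gbpl3, against 9.94, 8.79 and 8.89 CPM in wild type, and was 1.73-fold lower in gbpl3 (-0.79 on the log2 scale, SE 0.22, adjusted p = 0.0274). XTH8 had 36.5, 43.2 and 39.4 CPM in gbpl3, against 56.8, 47.6 and 55.3 CPM in wild type, 1.34-fold lower (-0.42, SE 0.11, adjusted p = 0.0217). Neither gene's genotypes overlapped. XTH15, also named XTR7 and known as a shade-induced gene, had 14.4, 24.6 and 14.6 CPM in gbpl3, against 23.8, 30.6 and 26.5 CPM in wild type (-0.59, SE 0.18, adjusted p = 0.0455), and gbpl3 replicate 2 lay above wild-type replicate 1. The XTH5 call ended without gbpl3 replicate 1 or 2 (adjusted p = 0.126 and 0.0668) or wild-type replicate 1 or 3 (0.0863 and 0.0687). The XTH8 call ended without gbpl3 replicate 1 or 3 (adjusted p = 0.122 and 0.0969) or wild-type replicate 1 or 3 (0.0661 and 0.093). The XTH15 call ended without gbpl3 replicate 1 or 3 (adjusted p = 0.204 and 0.231) or wild-type replicate 2 or 3 (0.114 and 0.106), and also in DESeq2 (adjusted p = 0.0535). XTH15 overlaps AT4G14120 on the opposite strand over 382 exon bases, and that gene had 230 counts over the gbpl3 libraries and 440 over the wild-type libraries, so the assignment of reads between them is uncertain where counting did not use strand.

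Of the 6 members outside the test, XTH1, XTH2 and XTH3 had 0 counts in every library, which allows up to 0.315 CPM in the smallest library at 3 counts, counting error only. XTH25, a relative of XTH22, had 13, 11 and 5 counts in gbpl3, against 1, 0 and 0 in wild type, a ratio of 28.3 (4.69 to 1156, exact 95% interval from counting error). XTH26, known from root hairs, had 24, 9 and 14 counts in gbpl3, against 0, 7 and 0 in wild type. XTH29 had 2, 3 and 0 counts in gbpl3 and none in wild type. When no filter on low counts was used, XTH25 (adjusted p = 0.0234) and XTH26 (adjusted p = 0.039) were higher in gbpl3 and XTH29 was not called (adjusted p = 0.384), where 10.8% of genes were called. DESeq2 also called XTH25, where 9.05% of genes were called, and edgeR without wild-type replicate 2 called XTH26, where 12.7% were called.

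The family holds 4 groups of neighbours less than 20 kb apart, with 11 members in all. Of the 8 tested members in these groups 6 rose and none fell, and of the 19 tested members that stand alone 3 rose and 4 fell, where 6.06% of all genes tested rose and 4.69% fell. The difference between neighbouring and lone members was not tested. On chromosome 4, XTH23 and XTH14 lie 363 bases apart, and both rose, by log2 fold changes of 0.88 and 2.53. A second chromosome 4 group holds XTH24, XTH18 and XTH19. On chromosome 5, XTH12, XTH13, XTH25 and XTH22 stand in a row within a few kilobases, the first pair with the largest rises among the tested members. XTH22 at the other end of that row, the touch-induced gene TCH4, had 29.6, 28.2 and 27.0 CPM in gbpl3, against 31.7, 17.0 and 26.7 CPM in wild type. The genotypes of XTH22 overlapped, and its log2 fold change of 0.17 (95% interval -0.19 to 0.53, adjusted p = 0.601) was -0.05 without wild-type replicate 2, its lowest library.

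**Figure D3:**
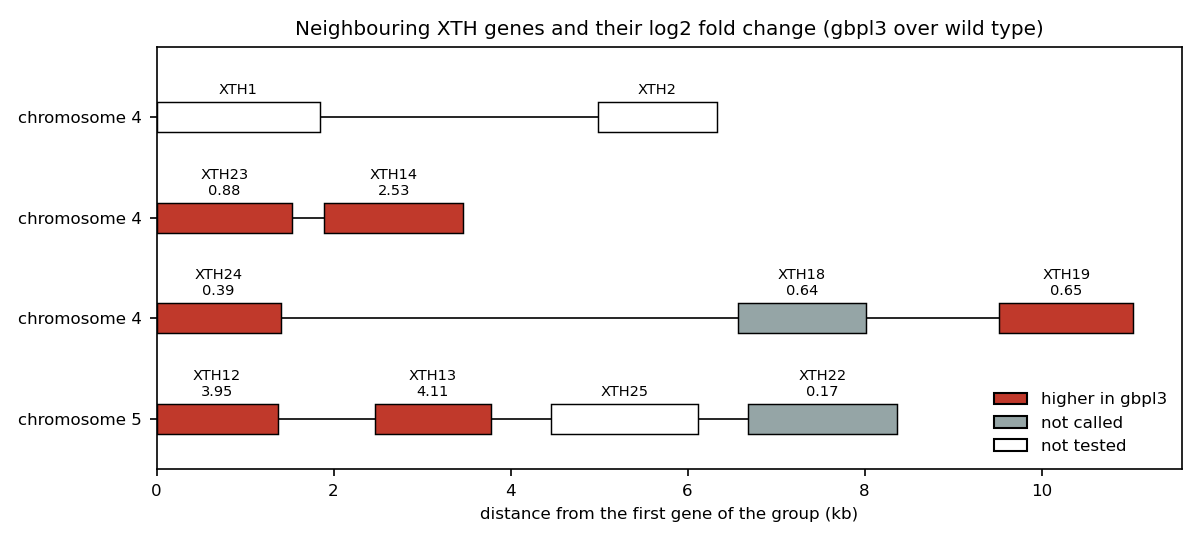
The 4 groups of neighbouring XTH genes, drawn to scale as distance in kb from the first gene of each group, with the log2 fold change (gbpl3 over wild type) above each tested gene. Red genes rose in gbpl3, grey genes were not called and white genes were not tested. XTH12 and XTH13 stand at 3.95 and 4.11 in the row that ends with XTH22 at 0.17.

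Levels between members were compared per length, as RPKM (reads per kilobase of the exon union and library size). XTH4, also named EXGT-A1, had the highest level, 299 ± 22.9 RPKM in gbpl3 and 300 ± 21.5 RPKM in wild type. Its log2 fold change was 0.06 (95% interval -0.15 to 0.27, adjusted p = 0.775), and the genotypes overlapped at 455, 516 and 512 CPM in gbpl3, against 468, 447 and 506 CPM in wild type. XTH7 was next at 181 ± 11.1 RPKM in gbpl3 and 133 ± 12.8 RPKM in wild type. XTH9, known from shoot apices, followed at 77.7 ± 1.86 RPKM in gbpl3 and 80.9 ± 9.99 RPKM in wild type, with a log2 fold change of 0.01 (95% interval -0.20 to 0.23, adjusted p = 0.965) and CPM of 120, 117 and 128 in gbpl3, against 136, 114 and 112 in wild type. Below these 3 most neighbours in the order could not be separated by their libraries. In gbpl3, 9 of 29 neighbouring pairs did not overlap, and in wild type 7 of 28.

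Of the 8 most abundant members, XTH7 and XTH24 were called, and XTH16, XTH27, XTH28 and XTH31 were not, like XTH4 and XTH9. XTH27, also named EXGT-A3 and known from tracheary elements, had 106, 109 and 118 CPM in gbpl3, against 93.9, 93.3 and 88.6 CPM in wild type (log2 fold change 0.27, SE 0.10, adjusted p = 0.0831). XTH28, known from stamen filaments, had 72.0, 68.9 and 71.8 CPM in gbpl3, against 66.8, 59.3 and 60.5 CPM in wild type (0.19, SE 0.10, adjusted p = 0.267). Both sets of libraries stood apart by genotype without the difference passing the test. XTH16 had 45.4, 60.4 and 47.4 CPM in gbpl3, against 65.8, 56.3 and 65.1 CPM in wild type, with overlap (-0.29, SE 0.12, adjusted p = 0.15), and was called without gbpl3 replicate 2 (-0.43, adjusted p = 0.0374). XTH31, the clade III-A hydrolase, had 73.0, 59.3 and 51.3 CPM in gbpl3, against 92.3, 61.3 and 75.5 CPM in wild type, with overlap (-0.32, SE 0.14, adjusted p = 0.18), and was called without wild-type replicate 2 (-0.46, adjusted p = 0.0273). The remaining uncalled members XTH10, XTH11, XTH30, XTH32 and XTH33 had log2 fold changes of 0.72, -0.34, -0.13, -0.14 and 0.38.

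The summed level of the family was 1062, 1142 and 1068 RPKM in gbpl3, against 1057, 915 and 1023 RPKM in wild type, a ratio of 1.09. Every gbpl3 library lay above every wild-type library, but gbpl3 replicate 1 and wild-type replicate 1 were nearly equal. These sums, and those below, are scaled by total counts without the TMM factors used for the fold changes. The factors were 0.976, 1.003 and 0.952 in gbpl3, against 1.038, 1.007 and 1.028 in wild type, so TMM scaling would give a higher ratio. The 8 most abundant members made up 75.2% to 76.7% of the sum in gbpl3 and 77.9% to 79.1% in wild type. XTH14 took 2.63% of the sum in gbpl3 and 0.521% in wild type, and moved to rank 11 of the family in gbpl3, against rank 18 in wild type. XTH12 stood at rank 19 in gbpl3, against rank 26 in wild type, and XTH21 at rank 28 in gbpl3, against rank 19 in wild type. The 10 members known mainly from roots summed to 166, 150 and 130 RPKM in gbpl3, against 130, 84.5 and 108 RPKM in wild type, a ratio of 1.38, with gbpl3 replicate 3 and wild-type replicate 1 almost alike. Of their 9 tested genes 5 rose and 1 fell, where 6.06% of all genes tested rose and 4.69% fell. Because this list was drawn up with earlier results of these data known, its counts and ratio are description only.

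**Figure D4:**
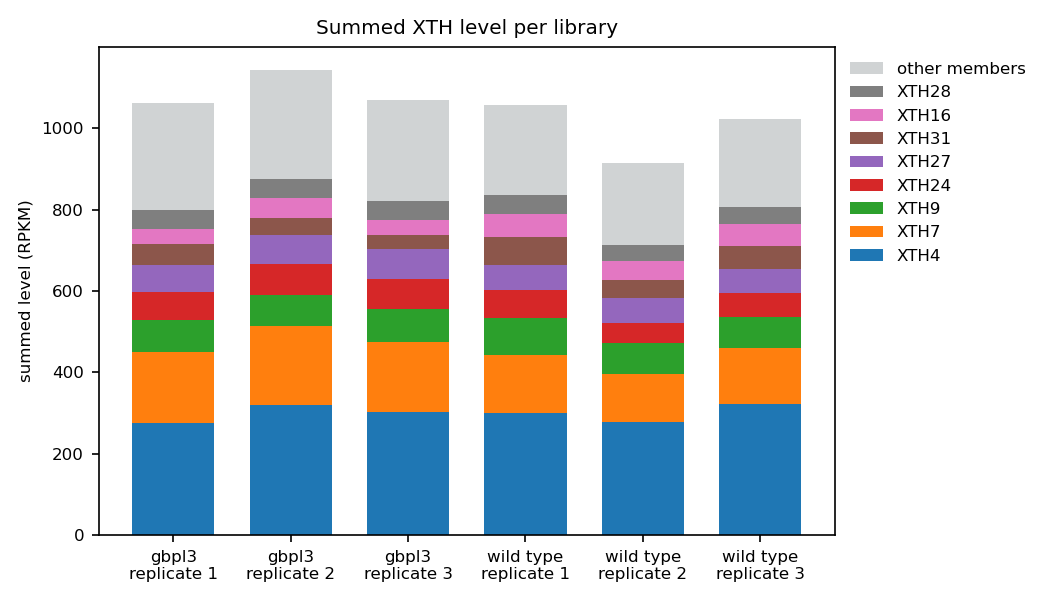
Summed level of the 33 XTH genes in each library (vertical axis, RPKM, from 0), gbpl3 libraries left of wild-type libraries, stacked by member with the 8 most abundant in colour and the rest in grey. The sums run from 1062 to 1142 RPKM in gbpl3 and from 915 to 1057 RPKM in wild type, with XTH4 as the largest part in all 6.

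Markers of cell types were followed beside these members. Of 12 root hair markers 5 rose and none fell, where 6.06% of all genes tested rose and 4.69% fell. The other 7 were not called. Among them RHD6, RSL4, COBL9, RHD2 and CSLD3 had log2 fold changes of 0.0030, 0.28, 0.20, 0.14 and -0.05, and EXPA7 and ADF8 had 0.38 and 0.83. The summed level of the 12 ran from 221 to 330 CPM in gbpl3, against 142 to 163 CPM in wild type, with no marker at 0. PRP3, a called marker, alone averaged 60.3 ± 14.7 CPM in gbpl3 and 14.4 ± 2.11 CPM in wild type. EXPA18, a root hair expansin gene, averaged 17.3 ± 6.41 CPM in gbpl3 and 6.33 ± 1.37 CPM in wild type (log2 fold change 1.45, SE 0.24, adjusted p = 0.000844), and LRX1, a hair wall protein gene, rose 2.47-fold (1.30, SE 0.19, adjusted p = 0.000176). Of 18 markers of other root tissues none rose and 2 fell, against the same shares of 6.06% and 4.69% (11.1% called in both directions, against 10.7% of all genes tested). Every gbpl3 library lay below every wild-type library for 6 of the 18 (13.6% of all genes tested) and above for 1 (14.5%). Their median log2 fold change was -0.31, and their sum ran from 263 to 300 CPM in gbpl3, against 304 to 378 CPM in wild type. Of 8 tested shoot markers 1 rose (12.5% called, near the 10.7% of all genes tested), LHCB2.1, a light-harvesting protein gene (0.63, SE 0.13, adjusted p = 0.00527). The sum of the 9 ran from 22248 to 25841 CPM in gbpl3, against 21012 to 22526 CPM in wild type. The 6 seed markers summed to 19.8, 78.4 and 225 CPM in gbpl3 replicates 1 to 3, against 0.262 to 2.76 CPM in wild type. The part of these marker differences in the XTH values was not tested, and in whole seedlings more cells of a type and more RNA per cell cannot be told apart.

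Genes that make or trim xyloglucan were followed beside the XTH members. Of 16 synthesis genes 1 rose and none fell (median log2 fold change 0.0053), and of 6 breakdown genes none was called by edgeR (median 0.09), where 10.7% of all genes were called. At these list sizes the counts are near that share. CSLC4, which encodes a synthase of the glucan backbone, had 104, 102 and 94.0 CPM in gbpl3, against 79.2, 79.8 and 81.3 CPM in wild type, a 1.25-fold rise without overlap (0.32, SE 0.10, adjusted p = 0.038). That call ended with any library left out (adjusted p = 0.0538 to 0.159). XXT2, a xylosyltransferase gene and the most abundant uncalled synthesis gene, averaged 101 ± 3.96 CPM in gbpl3 and 106 ± 3.96 CPM in wild type (-0.07, 95% interval -0.27 to 0.13). XYL1, the alpha-xylosidase that trims xyloglucan side chains, had 493, 497 and 515 CPM in gbpl3, against 374, 444 and 412 CPM in wild type, without overlap (0.29, SE 0.10, adjusted p = 0.0675). XYL1 was called in DESeq2 (adjusted p = 0.0192) and in edgeR without wild-type replicate 2 (0.35, adjusted p = 0.032).

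Beside XTH22, 3 further touch-induced genes for calmodulin or its relatives were followed. TCH3 had 76.8, 74.1 and 75.8 CPM in gbpl3, against 56.1, 35.9 and 60.4 CPM in wild type, a 1.49-fold rise without overlap (log2 fold change 0.58, SE 0.14, adjusted p = 0.0144). The TCH3 call ended without gbpl3 replicate 1 or 3 (adjusted p = 0.0596 and 0.0659), and its exons overlap AT2G41105 on the opposite strand over 272 bases, a gene with 1861 counts in gbpl3 and 1126 in wild type. TCH2 averaged 31.1 ± 2.00 CPM in gbpl3 and 23.9 ± 8.02 CPM in wild type and was not called (0.38, adjusted p = 0.209). CAM2 averaged 54.1 ± 6.38 CPM in gbpl3 and 65.4 ± 7.54 CPM in wild type and was not called (-0.27, adjusted p = 0.162). XTH22, TCH2, TCH3 and CAM2 all had their lowest wild-type value in replicate 2, the library farthest out on the second principal component. By chi-square per degree of freedom, wild-type replicate 2 stood at 15.0 from wild-type replicate 1 and at 5.79 from wild-type replicate 3. The value between wild-type replicates 1 and 3 was 6.85. Whether wild-type replicate 2 is an outlier was not tested.

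**Figure D5:**
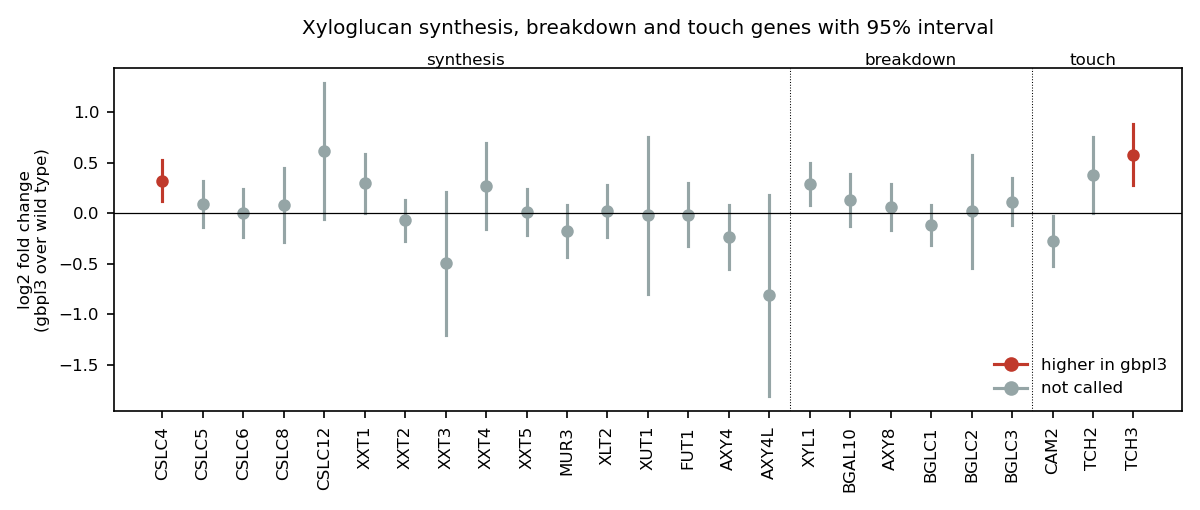
Log2 fold change (vertical axis, gbpl3 over wild type) of 16 xyloglucan synthesis genes, 6 breakdown genes and 3 touch genes, with bars for the 95% interval, not adjusted for the number of genes. CSLC4 at 0.32 and TCH3 at 0.58 are the called genes.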

How the data were processed

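The study sequenced strand-specific mRNA libraries, per the labels' protocols. The authors deposited raw counts per gene and FPKM values. The submitters' processing notes name HISAT2 2.0.4, HTSeq 0.6.1p1 and the genome TAIR10. How the counting treated strand and reads matching several genes is not given here. Deposited FPKM matched counts per exon union for 22 of 30 members with counts. For the other 8 the length implied was 1.26 to 2.37 times the union, so levels between members were recomputed as RPKM from counts and the TAIR10.1 annotation. Unstranded counting would add reads of overlapping genes.

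Groups came from sample titles. Counts were filtered with filterByExpr, TMM-scaled, and compared by the quasi-likelihood test of edgeR 4.0.16 in R 4.3.3, with Benjamini-Hochberg adjustment. SE is the absolute log2 fold change divided by the square root of F. Intervals and floors (3 counts) cover counting error only where counts are few. Alternatives were DESeq2 1.42.0, limma 3.58.1 on log2(FPKM + 1) and log2(FPKM + 0.1), other scalings and filters, the replicate number as a term, and each library left out. On simulated counts for this comparison over 20464 genes the test recovered 85.0% of genes changed 2-fold and 99.0% changed 4-fold, with 5.67% false calls. Recovery of changes under 2-fold, the size seen in most called members, is not given by these values. No library was a duplicate: chi-square divided by its degrees of freedom was 5.11 to 15.0 for pairs of the same genotype.

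The members, lists, root-known members and motifs were chosen with earlier results of these data known. Named were called members, the 8 most abundant, their neighbours, called pathway genes with the most abundant uncalled one per list, and up to 2 called markers per list. The uncalled members, PRP3, the uncalled root hair markers, TCH2, and the genes overlapping XTH15 and TCH3 were added after their values were seen. Coding sequences were aligned with Biopython 1.88.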

Additional observations from a re-analysis of the deposited data

How the results depend on the processing

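XTH12, XTH13, XTH14 and XTH20 were called in all 15 alternatives, and XTH7, XTH19 and XTH21 in all 6 fits that left out a library. RLE and upper-quartile scaling and a minimum of 1 CPM in 3 libraries kept all 13 calls, DESeq2 kept 12. With single libraries left out, members called higher ran from 6 to 9 and lower from 1 to 4, pathway genes called higher from 0 to 2, and all genes from 629 to 1443 higher and 320 to 1238 lower. limma on log2(FPKM + 1), after removing genes averaging under 1 FPKM, called 300 genes higher and 258 lower, on log2(FPKM + 0.1) 176 and 151, and on log2(FPKM + 1) with no filter 223 and 157. In these 3 fits 4 members were higher, 2, 0 and 0 lower, and 0 pathway genes were called, and the cause was not tested. The sign of uncalled members near 0 turned: XTH4 to -0.0074, -0.0075 and -0.0074 in the 3 limma fits, XTH9 to -0.0506, -0.0513 and -0.0506 in limma and between -0.0412 and -0.0229 without gbpl3 replicate 3, wild-type replicate 2 (-0.0282) or wild-type replicate 3, XTH17 to -0.122, -0.0384 and -0.0645 without gbpl3 replicate 2, wild-type replicate 2 or 3, and XTH22 to -0.0493 without wild-type replicate 2. Their highest values with a library left out were 0.107 (XTH9), 0.325 (XTH17) and 0.379 (XTH22), each without wild-type replicate 1. The family ratio, scaled by total counts, ran from 1.05 to 1.13 with single libraries left out. With the replicate block, 916 genes were higher and 618 lower, 8 members higher and 2 lower (the XTH5, XTH8 and XTH24 calls ended), and 1 pathway gene was higher. Same-numbered libraries shared only a number (correlations of -0.0461, -0.0647 and 0.0355), and gbpl3 replicates 1 and 2 correlated best with another number. At 24 and 12 wild-type counts, depth limits the folds of XTH12 and XTH13.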
